A study of Homo sapiens with 48 samples.

Results

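NEAT1, MALAT1 and KCNQ1OT1 are long non-coding RNAs that stay in the nucleus. They were taken by name as 3 of the 58721 gene entries measured in DLD-1, a human colorectal cancer cell line, and matched by Ensembl identifier to GENCODE 29. Total RNA was sequenced after 2 subunits of the CCR4-NOT deadenylase complex, CNOT1 and CNOT4, were tagged with an auxin-inducible degron (AID), a peptide that marks a protein for destruction when auxin is added. CNOT1-AID cells, CNOT4-AID cells and untagged parental cells all carried TIR1, the plant receptor that auxin needs to act. In the steady-state set each line received 1 mM auxin or was left untreated for 8 or 24 h, with 2 libraries in each of 12 groups. In the triptolide set every culture of the 3 lines received 1 mM auxin for 2 h and then 1 µM triptolide, a blocker of transcription initiation, for 0, 3, 6 or 12 h, again with 2 libraries in each of 12 groups. No library of the triptolide set lacked auxin, and the labels give neither the number of clones behind a tagged line nor whether the 2 libraries of a group came from separate cultures. The p-values below therefore measure only the spread between these libraries.

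NEAT1 is the scaffold of paraspeckles, nuclear bodies built from its long form together with RNA-binding proteins such as NONO and SFPQ. MALAT1 gathers in nuclear speckles, where splicing factors are stored. Long NEAT1 and MALAT1 carry no poly(A) tail: RNase P cuts each of them in front of a tRNA-like structure, and the new end is protected by a triple helix of U-rich and A-rich stretches. The short form of NEAT1 is cleaved earlier and polyadenylated like an mRNA. KCNQ1OT1 is transcribed from the paternal copy of an imprinted cluster, antisense to the potassium channel gene KCNQ1, and silences neighbouring genes in cis. CCR4-NOT shortens poly(A) tails, with CNOT1 as its scaffold and CNOT4 as a ubiquitin ligase attached to it.

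All 3 genes lie on chromosome 11 in the GRCh38 build. NEAT1 (ENSG00000245532.8, annotated as lincRNA) spans chr11:65422774-65445540 on the plus strand, 22767 bases with 8 annotated transcripts. MALAT1 (ENSG00000251562.8, lincRNA) spans chr11:65497688-65506516 on the plus strand, 8829 bases with 17 annotated transcripts. KCNQ1OT1 (ENSG00000269821.1, antisense) spans chr11:2608328-2699994 on the minus strand as 1 unspliced transcript of 91667 bases. The ends of these RNAs are shown because long NEAT1 and MALAT1 end in a triple helix, while short NEAT1 ends close to a poly(A) signal. Each window is 120 bases, written 5′ to 3′ as DNA letters from the GENCODE 29 transcripts. Capitals mark the stretches TTTTTCTTTT and TTTTGCTTTT, the A-rich tract AAAAAGCAAAA, and the poly(A) signal AATAAA.
MALAT1 end before the tRNA-like RNA, chr11:65505997-65506116, plus strand: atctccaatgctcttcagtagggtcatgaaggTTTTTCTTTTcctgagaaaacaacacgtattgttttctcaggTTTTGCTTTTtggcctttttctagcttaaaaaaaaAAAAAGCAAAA
NEAT1 long form end, chr11:65445421-65445540, plus strand: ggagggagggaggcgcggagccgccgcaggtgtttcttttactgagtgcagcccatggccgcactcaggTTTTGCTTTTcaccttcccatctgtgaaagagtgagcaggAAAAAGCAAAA
NEAT1 short form end, chr11:65426394-65426513, plus strand: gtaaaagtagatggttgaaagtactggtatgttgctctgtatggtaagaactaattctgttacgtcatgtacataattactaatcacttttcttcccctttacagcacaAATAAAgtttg
KCNQ1OT1 end, chr11:2608328-2608447, minus strand: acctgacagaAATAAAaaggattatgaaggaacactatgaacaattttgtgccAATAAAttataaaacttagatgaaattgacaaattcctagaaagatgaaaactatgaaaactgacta

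MALAT1 held all 3 triple-helix stretches once each, and long NEAT1 held TTTTGCTTTT and AAAAAGCAAAA once each. Short NEAT1 and KCNQ1OT1 held none of the 3 stretches, and held AATAAA once and 2 times. In short NEAT1 it lies close to the end, and in KCNQ1OT1 both copies lie away from the end. The stretches had been read from these windows, TTTTTCTTTT from MALAT1 and the other 2 from what MALAT1 and long NEAT1 share. That these RNAs hold them was thus fixed in advance. Only exact matches were marked, and similar runs are left in lower case. The 3 stretches were rare at the ends of the 29519 annotated long non-coding transcripts of at least 120 bases. TTTTTCTTTT was in the last 120 bases of 0.295% of them on the transcribed strand and 0.749% on the other, TTTTGCTTTT in 0.0644% and 0.227%, and AAAAAGCAAAA in 0.0542% and 0.0169%. TTTTGCTTTT and AAAAAGCAAAA occurred together in 1 of the 29519, which is long NEAT1 itself, while AATAAA was in 33.6%. No motif overlapped another in these 4 windows. The tables count reads per gene, so the long and short forms of NEAT1 were not separated. The tRNA-like RNAs annotated next to both ends, chr11:65506117-65506173 at MALAT1 and chr11:65445541-65445598 at NEAT1, were at 0 in all 48 libraries.

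The steady-state table holds TPM, transcripts scaled per length to a fixed total, with totals of 999999 to 1000001 per library and no read depth. The triptolide table holds counts, with 18216427 to 26723618 per library, of which ERCC spike-in RNAs took 0.941 to 3.92%. Small nuclear RNAs took 17.5 to 34.1% of the steady-state TPM in CNOT4-AID libraries, 15.9 to 18.6% in CNOT1-AID libraries and 16.4 to 19.3% in parental libraries. ERCC RNA was added to a fixed 500 ng of total RNA, so ERCC-scaled values are per mass of RNA and not per cell. In such bulk samples, fewer expressing cells and less RNA per cell cannot be told apart. A degron acts on a protein and not directly on its mRNA, so these tables do not show how far CNOT1 or CNOT4 was depleted. CNOT1 mRNA averaged 46.6 ± 2.34 TPM with auxin and 54.9 ± 8.42 TPM untreated in CNOT1-AID cells at 8 h, and CNOT4 mRNA averaged 9.72 ± 1.5 TPM with auxin and 9.39 ± 0.523 TPM untreated in CNOT4-AID cells at 8 h (SD, n = 2 each). Of 10 colon epithelium markers, 8 averaged at least 1 TPM (summed 1940 to 4690 TPM per library), against 0 of 6 fibroblast, 0 of 4 endothelium and 1 of 6 blood markers (CD14). Markers moved in CNOT1-AID cells given auxin: at 24 h 7 of 10 colon epithelium markers fell and 2 rose, with sums of 1940 to 1980 TPM with auxin and 3630 to 3760 TPM untreated. There the blood marker sum was 5.68 to 6.82 TPM with auxin and 0.74 to 0.78 TPM untreated, and the fibroblast sum 2.47 to 4.1 TPM with auxin and 0.11 to 0.2 TPM untreated, while PTPRC, CD3E, MS4A1, COL1A2, LUM and PDGFRA were at 0 in both auxin libraries. The part of these shifts in the responses below was not tested.

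MALAT1 was by far the most abundant of the 3 RNAs, with a mean of 751 TPM over the 24 steady-state libraries, 3rd among 15006 long non-coding gene entries and 118th among all 58721. NEAT1 averaged 20.1 TPM and ranked 40th among the long non-coding entries. KCNQ1OT1 averaged 0.596 TPM and ranked 1431st. In counts, which are not per length, the 24 triptolide libraries held 1572155 reads of MALAT1, 64079 of NEAT1 and 9699 of KCNQ1OT1.

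NEAT1 rose in CNOT1-AID cells given auxin, and did not pass the test in either of the other lines. At 8 h it had 38.4 and 35.7 TPM in CNOT1-AID auxin libraries, against 9.34 and 13.0 TPM in untreated CNOT1-AID libraries. At 24 h it had 57.0 and 48.0 TPM in CNOT1-AID auxin libraries, against 14.1 and 12.3 TPM in untreated CNOT1-AID libraries. The auxin libraries lay above the untreated ones at both times without overlap. On the log2 scale of TMM-scaled TPM + 0.5, the difference was 1.41 ± 0.11 at 8 h (SE, 2.66-fold, limma adjusted p = 1.11e-08) and 1.69 ± 0.11 at 24 h (3.22-fold, limma adjusted p = 6.09e-10). These sizes are read against a transcriptome in which 62.8% of 14921 genes passed at 8 h, 33.1% upward and 29.8% downward, and 71.5% passed at 24 h, 36.7% upward and 34.8% downward. With ERCC scaling the split was 52.1% upward and 9.85% downward at 8 h and 47% and 19.4% at 24 h, and NEAT1 was at 1.87 and 2.06. NEAT1 ranked 639th of 14921 from the top at 8 h and 758th at 24 h. Among the 1499 long non-coding genes tested it ranked 9th and 25th, where 106 rose and 604 fell at 8 h and 199 rose and 664 fell at 24 h. The difference between the 24 h and 8 h responses was 0.28 ± 0.16 and did not pass (limma adjusted p = 0.193, 95% interval -0.07 to 0.62; 36.3% of genes passed).

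In CNOT4-AID cells, NEAT1 had 9.32 and 14.4 TPM with auxin and 15.9 and 15.5 TPM untreated at 8 h, and 18.03 and 17.08 TPM with auxin and 15.8 and 14.8 TPM untreated at 24 h. Its differences were -0.27 ± 0.11 at 8 h and 0.07 ± 0.11 at 24 h on the log2 scale, and neither passed (limma adjusted p = 0.389 and 0.749; 0.288% and 4.51% of genes passed). In parental cells, NEAT1 had 17.9 and 18.3 TPM with auxin and 14.8 and 13.2 TPM untreated at 8 h, and 16.1 and 17.6 TPM with auxin and 20 and 15.6 TPM untreated at 24 h. The groups overlapped at 24 h in parental cells only. The parental differences were 0.26 ± 0.11 at 8 h and -0.06 ± 0.11 at 24 h (limma adjusted p = 0.865 and 1). For auxin in parental cells limma called 3 of 14921 genes at 8 h (0.0201%) and 0 at 24 h (0%), where 755 had an unadjusted p under 0.05.

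The response of NEAT1 in CNOT1-AID cells exceeded that in parental cells by 1.15 ± 0.16 at 8 h and 1.75 ± 0.16 at 24 h (limma adjusted p = 1.41e-05 and 6.3e-08; 50.3% and 61.9% of genes passed this test of the difference). It exceeded the response in CNOT4-AID cells by 1.69 ± 0.16 and 1.61 ± 0.16 (limma adjusted p = 1.93e-07 and 1.66e-07; 51.6% and 62.2% of genes passed). The CNOT4-AID response differed from the parental one by -0.54 ± 0.16 and 0.13 ± 0.16, which did not pass (limma adjusted p = 0.507 and 0.718; 0.0134% and 0.067% of genes passed). In order of their means, CNOT1-AID auxin at 24 h (52.5 ± 6.36 TPM) and at 8 h (37.0 ± 1.88 TPM) stood apart from the other 10 groups, which ran from 18.1 ± 0.304 TPM in parental auxin at 8 h to 11.2 ± 2.59 TPM in untreated CNOT1-AID at 8 h (SD, n = 2 each). Within those 10, neighbouring groups overlapped library by library except parental auxin at 24 h and untreated CNOT4-AID at 8 h.

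Untreated lines differed slightly in NEAT1. Over both times, untreated CNOT1-AID cells were lower than untreated parental cells by 0.34 on the log2 scale (-0.34 ± 0.079, limma adjusted p = 0.00628; 20.7% of genes passed). Untreated CNOT4-AID cells were 0.24 ± 0.079 higher than untreated parental cells (limma adjusted p = 0.0427; 20.2% of genes passed). Neither call held without scaling or with ERCC scaling, where the CNOT1-AID difference was -0.37 and -0.38 (limma adjusted p = 0.0559 and 0.0634) and the CNOT4-AID difference -0.02 and 0.32 (limma adjusted p = 0.886 and 0.0886). The CNOT4-AID call was also lost with the replicate number as a block (limma adjusted p = 0.0509) and without any single untreated CNOT4-AID or parental library other than parental replicate 1 at 24 h (0.17 to 0.26).

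**Figure D1:**
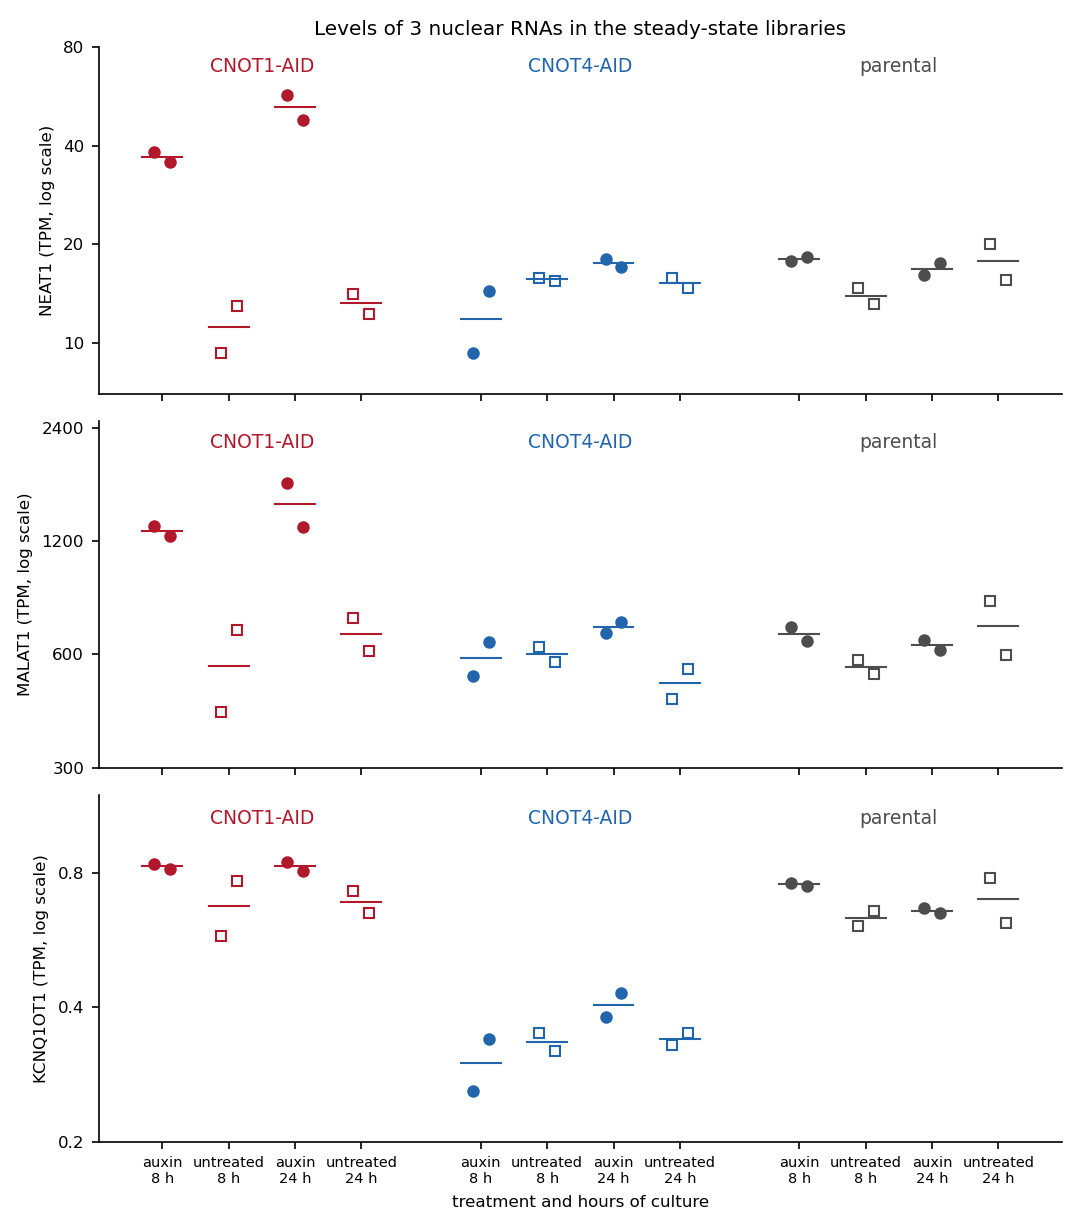
TPM of NEAT1, MALAT1 and KCNQ1OT1 (log axes, 1 panel per gene) in each steady-state library; filled circles are auxin, open squares untreated, short lines group means, 2 libraries per group. NEAT1 and MALAT1 stand high in both CNOT1-AID auxin groups, and KCNQ1OT1 is low in all CNOT4-AID groups.

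MALAT1 also rose in CNOT1-AID cells given auxin, by a smaller factor than NEAT1. At 8 h it had 1319 and 1237 TPM in CNOT1-AID auxin libraries, against 422 and 695 TPM in untreated CNOT1-AID libraries. At 24 h it had 1711 and 1304 TPM in CNOT1-AID auxin libraries, against 750.5 and 612 TPM in untreated CNOT1-AID libraries. The groups did not overlap, although the untreated 8 h pair and the auxin 24 h pair were each spread widely. The log2 difference was 0.94 ± 0.16 at 8 h (1.92-fold, limma adjusted p = 9.47e-05) and 0.88 ± 0.16 at 24 h (1.84-fold, limma adjusted p = 0.000139). MALAT1 ranked 1614th of 14921 genes from the top at 8 h and 2729th at 24 h, with 10.8% and 18.3% of genes above it. Among 1499 long non-coding genes, whose median was -0.36 at 8 h and -0.41 at 24 h, it ranked 32nd and 101st.

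In CNOT4-AID cells, MALAT1 had 526 and 646 TPM with auxin and 629 and 572 TPM untreated at 8 h, and 686 and 731 TPM with auxin and 457 and 550 TPM untreated at 24 h. The auxin pair lay above the untreated pair at 24 h, but the difference of 0.37 ± 0.16 did not pass (limma adjusted p = 0.185), nor did 0.11 ± 0.16 at 8 h (limma adjusted p = 0.883). In parental cells, MALAT1 had 709 and 652 TPM with auxin and 578 and 533 TPM untreated at 8 h, and 656 and 616 TPM with auxin and 830 and 596 TPM untreated at 24 h. Those differences were 0.19 ± 0.16 and -0.14 ± 0.16 (limma adjusted p = 0.911 and 1).

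The MALAT1 response in CNOT1-AID cells exceeded the parental one by 0.75 ± 0.23 at 8 h and 1.01 ± 0.23 at 24 h (limma adjusted p = 0.0118 and 0.00107). The 8 h difference rested on the first untreated CNOT1-AID library at 8 h, the one with 422 TPM: without it the value was 0.48 and no longer passed (limma adjusted p = 0.0687). Against CNOT4-AID cells the excess was 0.83 ± 0.23 at 8 h, which passed (limma adjusted p = 0.0061), and 0.50 ± 0.23 at 24 h, which did not (limma adjusted p = 0.0644, 95% interval 0.01 to 1). By group mean, CNOT1-AID auxin at 24 h (1510 ± 288 TPM) and at 8 h (1280 ± 57.9 TPM) came first and overlapped each other. The other 10 groups ran from 713 ± 165 TPM in untreated parental cells at 24 h to 503 ± 65.7 TPM in untreated CNOT4-AID cells at 24 h, each overlapping its neighbour. Before auxin, MALAT1 in CNOT1-AID and CNOT4-AID cells differed from parental cells by -0.01 ± 0.11 and 0.08 ± 0.11 (limma adjusted p = 0.957 and 0.662).

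KCNQ1OT1 did not pass in any auxin comparison. It was below 1 TPM in all 24 libraries, under the filter of the fit above, and was therefore tested in a second limma fit with a filter of 0.25 TPM in 2 libraries and a pseudocount of 0.05, chosen after its values were seen (20038 genes). At 8 h it had 0.84 and 0.82 TPM in CNOT1-AID auxin libraries, against 0.58 and 0.77 TPM in untreated CNOT1-AID libraries, and at 24 h 0.85 and 0.81 TPM with auxin, against 0.73 and 0.65 TPM untreated. The auxin values were higher in deposited TPM, but after TMM scaling the log2 differences were 0.01 ± 0.19 at both times (limma adjusted p = 0.977 and 1, 95% intervals -0.40 to 0.43 and -0.40 to 0.42; 50.3% and 58.5% of genes passed). With ERCC scaling they were 0.45 ± 0.25 and 0.36 ± 0.25 and did not pass either (limma adjusted p = 0.146 and 0.237). In CNOT4-AID cells the differences were -0.02 ± 0.19 and 0.11 ± 0.19 at 8 and 24 h, and in parental cells 0.14 ± 0.19 and -0.06 ± 0.19 (limma adjusted p = 1, 0.829, 0.979 and 1; 0.2%, 2.38%, 0.00998% and 0.00998% of genes passed). The CNOT1-AID response differed from the parental one by -0.12 ± 0.27 and 0.07 ± 0.27 (limma adjusted p = 0.765 and 0.864; 38.7% and 48.6% of genes passed). Responses within these intervals were not detectable at this level.

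The level of KCNQ1OT1 differed by line. All 8 CNOT4-AID libraries lay between 0.26 and 0.43 TPM, below the 16 CNOT1-AID and parental libraries at 0.58 to 0.85 TPM. CNOT4-AID group means ran from 0.405 ± 0.0354 TPM with auxin at 24 h to 0.300 ± 0.0566 TPM with auxin at 8 h. The other groups ran from 0.830 ± 0.0141 TPM in CNOT1-AID auxin at 8 h to 0.635 ± 0.0354 TPM in untreated parental cells at 8 h. Untreated CNOT4-AID cells were lower than untreated parental cells by 0.64 on the log2 scale (-0.64 ± 0.13, 0.64-fold, limma adjusted p = 0.00364; 15.5% of genes passed), and CNOT1-AID cells differed by 0.06 ± 0.13 (limma adjusted p = 0.839; 15.5% of genes passed). Small nuclear RNAs took 20 to 27.5% of TPM in the untreated CNOT4-AID libraries and 16.4 to 19.3% in the untreated parental libraries, and the part of this in the KCNQ1OT1 difference was not tested.

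**Figure D2:**
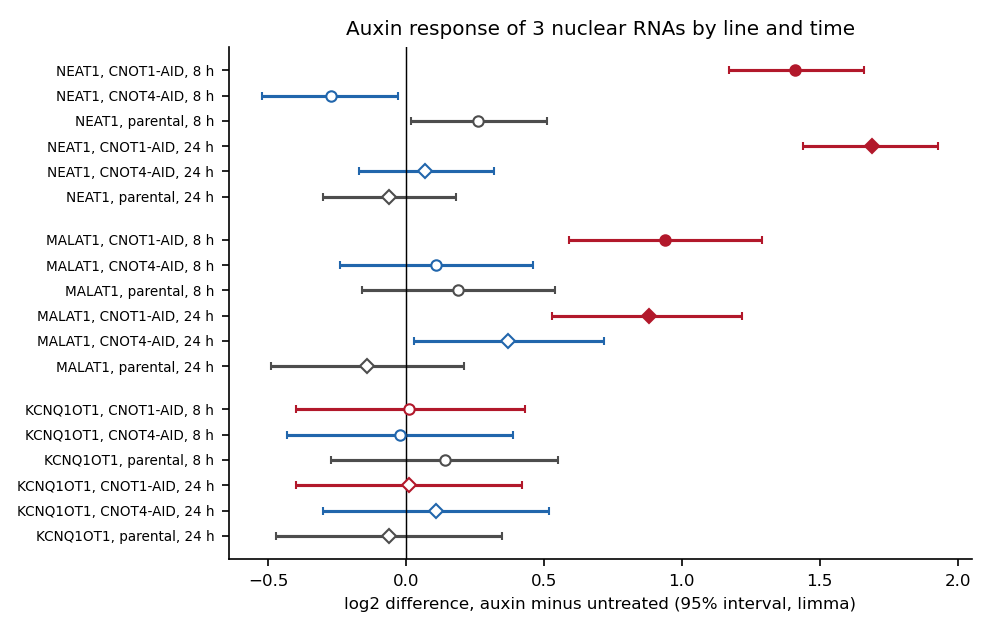
Log2 differences between auxin and untreated cells with 95% intervals from limma, for each RNA, line and time (circles 8 h, diamonds 24 h); filled symbols passed an adjusted p of 0.05. NEAT1 and MALAT1 in CNOT1-AID cells are the filled symbols, at 0.88 to 1.69.

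The ratio of NEAT1 to MALAT1 within a library needs no scaling between libraries. In CNOT1-AID cells NEAT1 stood at 3.33 and 3.68 per 100 MALAT1 with auxin at 24 h, against 1.88 and 2.01 untreated, and at 2.91 and 2.89 with auxin at 8 h, against 2.21 and 1.87 untreated. The auxin libraries lay above the untreated ones at both times, so NEAT1 gained on MALAT1 there. In CNOT4-AID cells the ratio was 2.63 and 2.34 with auxin at 24 h, against 3.45 and 2.68 untreated, and 1.77 and 2.23 with auxin at 8 h, against 2.52 and 2.70 untreated. There the auxin libraries lay below the untreated ones, and in parental cells the ratios overlapped (2.46 to 2.85 with auxin, 2.41 to 2.62 untreated over both times). These ratios were not tested.

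Under triptolide, NEAT1 and KCNQ1OT1 fell in all 3 lines, and MALAT1 passed as lower at no time in any line with all libraries kept. Levels are given as percent of the line's own 0 h mean after ERCC scaling, with 56 ERCC sequences. NEAT1 in CNOT1-AID cells stood at 81.7 and 114% at 3 h, 29.9 and 30.5% at 6 h, and 15.8 and 13.3% at 12 h. In CNOT4-AID cells it stood at 54.2 and 65.2%, 35.6 and 36.2%, and 21.5 and 12.6% at those times. In parental cells it stood at 110 and 112%, 56.6 and 92.0%, and 37.8 and 27.9%. By 12 h all 6 libraries were below those at 0 h, and both CNOT1-AID libraries were below both parental ones at 6 and 12 h. Raw NEAT1 counts ran from 620 in a CNOT1-AID library at 12 h to 5527 in a CNOT4-AID library at 0 h.

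A straight line through log2 level over 0 to 12 h gave NEAT1 slopes of -0.257 ± 0.029 per hour in CNOT1-AID cells, -0.212 ± 0.027 in CNOT4-AID cells and -0.148 ± 0.029 in parental cells, equal to half-lives of 3.89, 4.72 and 6.75 h. All passed (edgeR adjusted p = 9.63e-09, 6e-09 and 4.12e-05; 11%, 85.8% and 49% of 16806 genes passed, and the median slopes of all genes were -0.026, -0.148 and -0.073). Without the 12 h libraries the parental slope was -0.072 and no longer passed (edgeR adjusted p = 0.417). NEAT1 was thus among the faster-lost RNAs in CNOT1-AID cells, with 4.59% of genes below its slope, and less so in CNOT4-AID cells (30.6%) and parental cells (25.9%). The CNOT1-AID slope was steeper than the parental slope by 0.109 per hour (-0.109 ± 0.039, edgeR adjusted p = 0.0373). Of all genes 19.8% passed that comparison, 18.8% with a flatter slope in CNOT1-AID cells and 0.94% with a steeper one, as NEAT1. These shares depend on the scaling: with TMM, 20.5% passed as flatter and 15.7% as steeper. The difference of slopes between CNOT4-AID and parental cells was -0.064 ± 0.038 (edgeR adjusted p = 0.16; 0.845% of genes passed, 142 in all, and 0 to 9690 when 1 library was left out), and between CNOT1-AID and CNOT4-AID cells -0.046 ± 0.037 (edgeR adjusted p = 0.285; 51.7% passed). The CNOT1-AID and CNOT4-AID slopes differed past the threshold with TMM scaling (-0.156, edgeR adjusted p = 9.73e-05) and with library totals (-0.127, edgeR adjusted p = 0.000854).

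The steeper NEAT1 slope in CNOT1-AID cells is close to the threshold. Its call was lost without the 12 h libraries, where the value was larger (-0.216, edgeR adjusted p = 0.187), without the 0 h libraries (-0.097, edgeR adjusted p = 0.173), and when any of 6 single libraries was left out (adjusted p up to 0.117), while its value stayed between -0.136 and -0.092 per hour over single libraries. Those 6 were parental replicates 1 and 2 at 0 h, parental replicate 1 at 12 h, CNOT1-AID replicate 1 at 3 h, and CNOT1-AID replicates 1 and 2 at 12 h.

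NEAT1 loss was not even in time, so the half-lives of the straight line above do not describe each interval. At 3 h against 0 h the log2 difference was -0.03 ± 0.30 in CNOT1-AID cells and 0.15 ± 0.30 in parental cells, which did not pass (edgeR adjusted p = 0.993 and 0.916; 5.37% and 14.8% of genes passed). In CNOT4-AID cells it was -0.74 ± 0.30 (edgeR adjusted p = 0.0419; 31.6% passed). That call was lost with TMM scaling, where the value was -0.21, with the replicate number as a block (edgeR adjusted p = 0.0581), and without any of 3 single libraries (CNOT4-AID replicate 1 at 0 h, and replicates 1 and 2 at 3 h; -0.41 to -0.88). At 6 h NEAT1 had fallen, with differences of -1.73 ± 0.31 in CNOT1-AID cells and -1.48 ± 0.30 in CNOT4-AID cells (edgeR adjusted p = 9.08e-07 and 6.4e-06; 10.6% and 46.8% of genes passed). In parental cells the 6 h value was -0.43 ± 0.30 and did not pass (edgeR adjusted p = 0.351; 23.9% passed). At 12 h it had fallen in all lines, with -2.78 ± 0.32 in CNOT1-AID, -2.55 ± 0.31 in CNOT4-AID and -1.60 ± 0.31 in parental cells (edgeR adjusted p = 3.53e-16, 2.57e-15 and 7.6e-07; 12.9%, 87.5% and 51.6% passed).

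MALAT1 differed from both over the same hours. In CNOT1-AID cells it stood at 177 and 261% of 0 h at 3 h, 178 and 169% at 6 h, and 127 and 105% at 12 h. In CNOT4-AID cells it stood at 123 and 140%, 138 and 135%, and 87.2 and 47.4%. In parental cells it stood at 207 and 199%, 176 and 307%, and 157 and 126%. CNOT1-AID and parental libraries at 3 and 6 h were all above their 0 h libraries, and CNOT4-AID libraries at 12 h were on either side of the lower of their 0 h libraries (79.6%). The rise at 3 h passed in CNOT1-AID cells (1.13 ± 0.30, edgeR adjusted p = 0.00454) and parental cells (1.02 ± 0.29, edgeR adjusted p = 0.00574), as did that at 6 h in parental cells (1.27 ± 0.30, edgeR adjusted p = 0.000169). Genes passing upward were 1.48%, 1.77% and 2.84% in these comparisons. With TMM scaling MALAT1 also passed upward in CNOT4-AID cells at 3 h (0.93, against 0.40 with ERCC) and 6 h (1.19, against 0.45), in CNOT1-AID cells at 6 h (1.09, against 0.80) and 12 h (0.53, against 0.21), and in parental cells at 12 h (1.34, against 0.50).

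The MALAT1 rise at 3 h was lost without any of 3 libraries in CNOT1-AID cells (replicates 1 and 2 at 0 h, replicate 2 at 3 h; 0.83 to 1.21) and without replicate 1 at 0 h or at 3 h in parental cells (0.99 to 1.00). The slopes of MALAT1 were -0.016 ± 0.048 per hour in CNOT1-AID cells, -0.057 ± 0.048 in CNOT4-AID cells and 0.022 ± 0.049 in parental cells, and none passed (edgeR adjusted p = 0.89, 0.268 and 0.757). These slopes depend on the times used: without 0 h the CNOT1-AID (-0.101) and CNOT4-AID (-0.118) slopes passed (edgeR adjusted p = 0.0426 and 0.00157), and without 12 h the parental slope passed upward (0.212, edgeR adjusted p = 0.00676), as it did with TMM (0.091, edgeR adjusted p = 0.045). Of all genes 91.7% had a lower slope than MALAT1 in CNOT4-AID cells and 94% in parental cells, against 66% in CNOT1-AID cells. No difference of MALAT1 slopes between lines passed (edgeR adjusted p = 0.339 to 0.889). The direction in CNOT4-AID cells at 12 h depends on the scaling: it was -0.57 ± 0.29 with ERCC scaling (edgeR adjusted p = 0.0579) and 1.18 ± 0.13 with TMM scaling (edgeR adjusted p = 3.48e-07). The median of all genes was -1.82 there with ERCC scaling and -0.06 with TMM scaling. The ERCC scaling factors of the 2 CNOT4-AID libraries at 12 h differed 1.61-fold, and those of the 2 parental libraries at 6 h 2.01-fold. Over single libraries left out, the ERCC-scaled MALAT1 value in CNOT4-AID cells at 12 h ran from -1.08 to -0.20. It was -1.08 without replicate 1 at 12 h and -0.84 without replicate 2 at 0 h, larger falls than with all libraries.

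KCNQ1OT1 had lost most of its reads by 3 h in every line. It had 186 and 133 counts in CNOT1-AID cells at 3 h and 1043 and 1028 at 0 h, 231 and 249 counts in CNOT4-AID cells at 3 h and 1786 and 1472 at 0 h, and 184 and 170 counts in parental cells at 3 h and 1029 and 983 at 0 h. After ERCC scaling this left 13.9 and 15.6% in CNOT1-AID cells, 8.55 and 12.0% in CNOT4-AID cells and 15.8 and 13.8% in parental cells. At 12 h, 4.39 and 2.66%, 3.17 and 1.90%, and 4.67 and 4.83% were left in the same order of lines. No library at 3 h or later overlapped one at 0 h.

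The 3 h differences were -2.76 ± 0.33, -3.28 ± 0.33 and -2.76 ± 0.33 on the log2 scale in CNOT1-AID, CNOT4-AID and parental cells (edgeR adjusted p = 2.65e-14, 7.57e-21 and 5.83e-15). Over the whole course the slopes were -0.401 ± 0.074, -0.426 ± 0.072 and -0.352 ± 0.072 per hour, half-lives of 2.49, 2.35 and 2.84 h, and all passed (edgeR adjusted p = 0.00111, 2.68e-05 and 0.000476). Only 2.05%, 6.1% and 5.31% of genes had lower slopes. The loss was not straight on the log2 scale: the difference from 0 h was -2.76 after 3 h and -4.83 after 12 h in CNOT1-AID cells. The half-lives of the straight line are therefore too long for the first 3 h. After those, means of 14.8%, 10.3% and 14.8% were left in CNOT1-AID, CNOT4-AID and parental cells. The slope in CNOT1-AID cells differed from the parental slope by -0.049 ± 0.096 (edgeR adjusted p = 0.898, 95% interval -0.25 to 0.152), and the slope in CNOT4-AID cells by -0.074 ± 0.092 (edgeR adjusted p = 0.503, 95% interval -0.268 to 0.12). KCNQ1, which KCNQ1OT1 overlaps on the other strand, had 8 to 41 counts per library. How strand was used in counting is not given in the sources used here. If it was not used, reads from KCNQ1 introns and KCNQ1OT1, or from MALAT1 and the antisense gene AP000769.2 annotated within it, cannot be told apart.

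**Figure D3:**
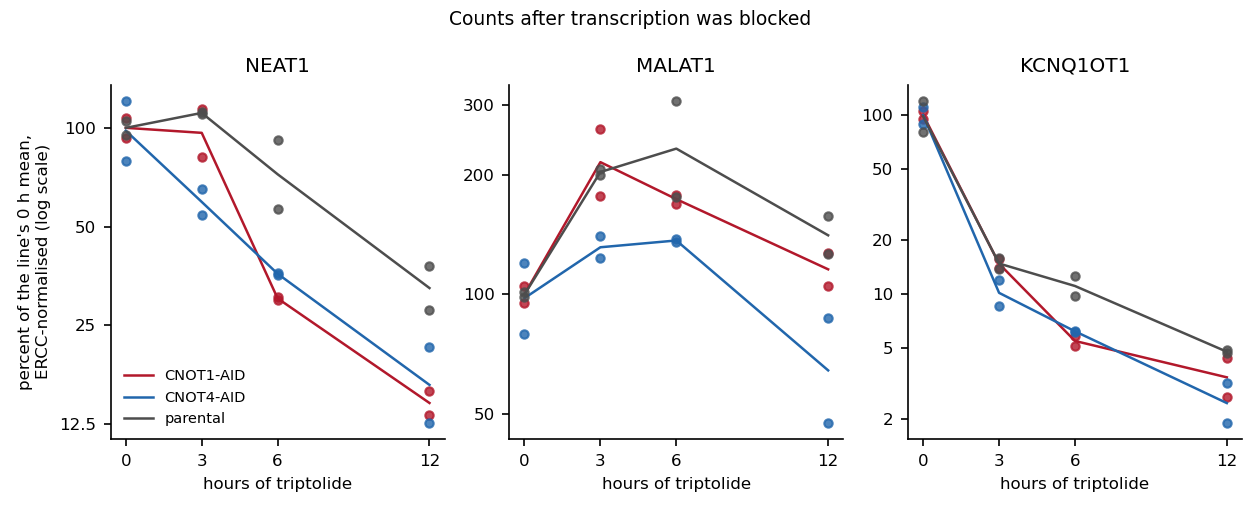
ERCC-scaled level as percent of the line's own 0 h mean (log axis) against hours of triptolide, 1 panel per RNA; points are libraries and lines join geometric means of 2 libraries. NEAT1 ends at 12.6 to 37.8%, MALAT1 at 47.4 to 157% and KCNQ1OT1 at 1.90 to 4.83% of 0 h.

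The fall of NEAT1 relative to MALAT1 in the same library needs no spike-in, but the ratio also falls when MALAT1 rises. At 3 h ERCC-scaled NEAT1 averaged 97.8%, 59.7% and 111% of 0 h in CNOT1-AID, CNOT4-AID and parental cells. MALAT1 averaged 219%, 132% and 203% there. NEAT1 per 100 MALAT1 counts at 0, 3, 6 and 12 h was 8.62 and 8.91, 4.04 and 3.84, 1.47 and 1.58, and 1.09 and 1.11 in CNOT1-AID cells. It was 9.71 and 9.63, 4.25 and 4.51, 2.5 and 2.59, and 2.39 and 2.57 in CNOT4-AID cells. In parental cells it was 12.6 and 11.1, 6.27 and 6.64, 3.80 and 3.55, and 2.86 and 2.63. The 2 libraries of a group lay close together throughout, and the 6 and 12 h libraries overlapped in CNOT4-AID cells. At 12 h the CNOT1-AID ratio was below the other 4 libraries, as it already was at 0 h.

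**Figure D4:**
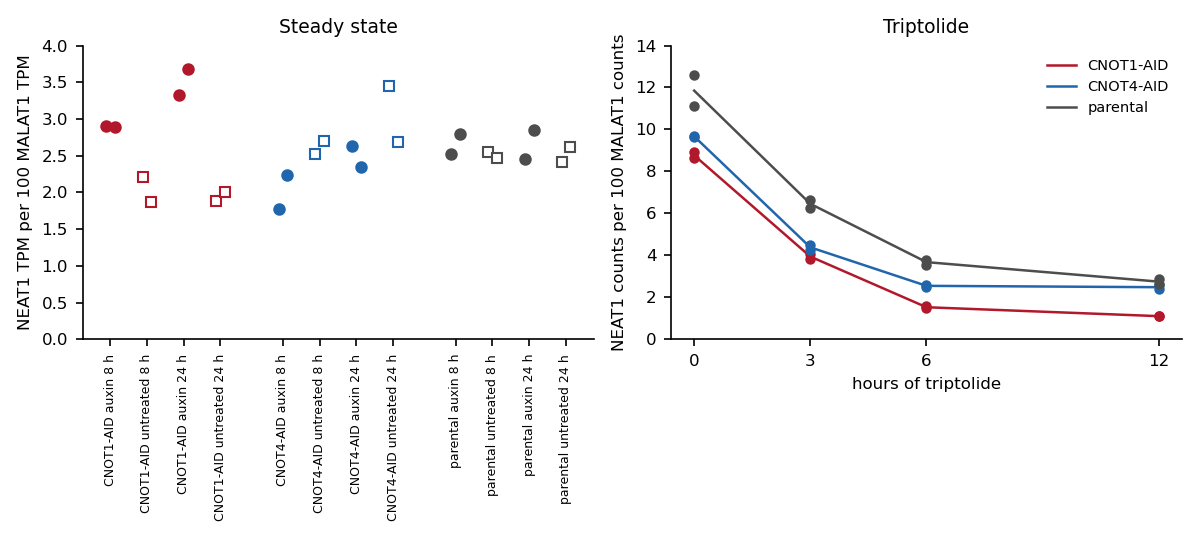
NEAT1 per 100 MALAT1 in single libraries, as TPM in the steady-state set (left; circles auxin, squares untreated) and as counts against hours of triptolide (right; lines join means of 2 libraries). CNOT1-AID is highest of the auxin groups at 24 h in the left panel (3.33 and 3.68). In the right panel it is lowest at every time, at 12 h with 1.09 and 1.11. TPM is per length and counts are not, and the 2 sets also differ in treatment, so levels are not compared between panels. The cause of their different scales was not tested.

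At 0 h of triptolide, after 2 h of auxin, lines were compared before transcription was blocked. NEAT1 had 149 and 161 CPM (counts scaled to library size) in CNOT1-AID cells, 270 and 185 CPM in CNOT4-AID cells and 148 and 164 CPM in parental cells. CNOT4-AID cells were higher than parental cells by 0.62 ± 0.13 (edgeR adjusted p = 0.00265; 12% of genes passed), and CNOT1-AID cells differed by 0.04 ± 0.13 (edgeR adjusted p = 0.875; 14.5% passed). Without the first CNOT4-AID library the NEAT1 difference was 0.32 (edgeR adjusted p = 0.0688). MALAT1 had 1720 and 1810 CPM in CNOT1-AID cells, 2780 and 1920 CPM in CNOT4-AID cells and 1170 and 1480 CPM in parental cells, so both tagged lines lay above the parental line. The differences were 0.47 ± 0.13 for CNOT1-AID and 0.90 ± 0.13 for CNOT4-AID cells (edgeR adjusted p = 0.0228 and 0.000134). The CNOT1-AID call was lost without parental replicate 1 (0.32, edgeR adjusted p = 0.205) and without either CNOT1-AID library. The 2 parental libraries at 0 h differed from each other more than any other pair (chi-square 85 per degree of freedom, against 2.68 at the lowest).

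KCNQ1OT1 at 0 h had 52.4 and 54.8 CPM in CNOT1-AID cells, 87.1 and 73.5 CPM in CNOT4-AID cells and 57.3 and 46.8 CPM in parental cells. CNOT4-AID cells were thus higher than parental cells by 0.69 ± 0.14 (edgeR adjusted p = 0.00303), where the untreated steady-state TPM had them lower by 0.64. CNOT1-AID cells differed from parental cells by 0.09 ± 0.14 (edgeR adjusted p = 0.748). In the steady-state set KCNQ1OT1 was also lower in CNOT4-AID than in parental cells with auxin, at 0.300 and 0.405 TPM against 0.755 and 0.660 TPM as means at 8 and 24 h. The 2 tables hold TPM and counts and were scaled separately, and the difference between them was not tested.

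Genes related to the 3 RNAs were followed in lists. The median of each list is given beside that of all 14921 genes, which was 0.00 at 8 h and -0.01 at 24 h in CNOT1-AID cells, where 33.1% of all genes rose and 29.8% fell at 8 h and 36.7% rose and 34.8% fell at 24 h. With ERCC scaling the median of all genes was 0.41 at 8 h and 0.31 at 24 h, so counts are also given with that scaling. Those counts are read against 52.1% of all genes rising and 9.85% falling at 8 h, and 47% and 19.4% at 24 h. Of 25 paraspeckle proteins, 9 rose and 6 fell at 8 h and 12 rose and 7 fell at 24 h in CNOT1-AID cells, with medians of -0.08 and 0.17. The shares at 8 h are near those of all genes. With ERCC scaling 21 rose and 0 fell at 8 h, and 18 rose and 1 fell at 24 h. AKAP8L, a nuclear matrix protein, rose 2.44-fold at 24 h (limma adjusted p = 1.22e-09), and the transcription factor ZNF24 rose 2.04-fold at 8 h (limma adjusted p = 2.44e-08). The cold-inducible RNA-binding protein gene CIRBP rose 1.53-fold at 24 h. DAZAP1, an RNA-binding protein, fell to 0.650-fold at 24 h, and with ERCC scaling its log2 difference was -0.24 (limma adjusted p = 0.0266). HNRNPK fell to 0.747-fold at 8 h, a call lost with ERCC scaling (0.05, limma adjusted p = 0.718). The paraspeckle proteins SFPQ and NONO also fell at 24 h, with log2 differences of -0.42 and -0.457, and PSPC1 was at -0.054, which did not pass (limma adjusted p = 3.54e-07, 0.00802 and 0.388). With ERCC scaling SFPQ (-0.04) and NONO (-0.08) did not pass, and PSPC1 passed upward (0.32, limma adjusted p = 0.757, 0.644 and 0.00436).

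Of 20 nuclear speckle proteins, 13 rose and 1 fell at 8 h and 13 rose and 3 fell at 24 h in CNOT1-AID cells, with medians of 0.39 and 0.44. With ERCC scaling 19 rose and 0 fell at 8 h, and 14 rose and 1 fell at 24 h. CDK12, a kinase of RNA polymerase II, rose 1.92-fold at 8 h and 2.47-fold at 24 h. RBM25, a splicing regulator, rose 2.28-fold at 8 h and 2.03-fold at 24 h, and the splicing kinase CLK2 rose 2.02-fold at 24 h. The splicing factor LUC7L3 rose 1.80-fold at 8 h. The limma adjusted p of these genes was 1.38e-05 at the highest.

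Of 23 genes for processing or decay of nuclear RNA 3′ ends, 17 rose and 2 fell at 8 h and 16 rose and 2 fell at 24 h, with medians of 0.50 and 0.38. With ERCC scaling 22 rose and 0 fell at 8 h, and 21 rose and 1 fell at 24 h. RPP38, a protein subunit of RNase P, which cuts MALAT1 and long NEAT1, rose 4.23-fold at 8 h and 5.44-fold at 24 h (limma adjusted p = 1.06e-12 and 5.61e-14). RPPH1, the RNA subunit of RNase P, fell at 24 h, with a log2 difference of -0.637 (limma adjusted p = 1.05e-05) and was named after its value was seen. ZCCHC8 and RBM7, subunits of the exosome-targeting NEXT complex, rose 3.56-fold at 24 h and 2.13-fold at 8 h. ZC3H3, a zinc finger protein of nuclear poly(A) RNA handling, rose 2.14-fold at 8 h and 3.33-fold at 24 h.

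Of 14 listed neighbours of NEAT1 and MALAT1 on chromosome 11, 13 were in the table and 12 were tested, of which 7 rose and 3 fell at 8 h and 7 rose and 4 fell at 24 h, with medians of 0.42 and 0.79. With ERCC scaling 8 rose and 0 fell at 8 h, and 7 rose and 2 fell at 24 h. CDC42EP2, a CDC42 effector, rose 9.50-fold at 8 h and 15.8-fold at 24 h, the most of the list (limma adjusted p = 8.55e-11 and 3.11e-12). The chromatin remodelling gene DPF2 rose 2.12-fold and 3.95-fold, and LTBP3, a TGF-beta binding protein, 2.83-fold and 3.15-fold. FRMD8, the listed gene next to NEAT1, rose 1.48-fold and 1.59-fold. FAM89B fell to 0.595-fold and 0.358-fold, and the DNA polymerase subunit gene POLA2 to 0.704-fold and 0.433-fold, and with ERCC scaling both fell at 24 h only (-1.12 and -0.84; at 8 h -0.30 and -0.05, limma adjusted p = 0.0658 and 0.784). At 24 h these neighbours ran from -1.482 (FAM89B) to 3.98 (CDC42EP2) on the log2 scale. NEAT1 and MALAT1 lay within that wide range, as did KCNQ1OT1 at 0.01, so it does not set them apart.

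In the imprinted cluster of KCNQ1OT1, 12 of 17 genes were tested, of which 7 rose and 3 fell at 8 h and 6 rose and 4 fell at 24 h in CNOT1-AID cells, with medians of 0.32 and 0.17. With ERCC scaling 9 rose and 0 fell at 8 h, and 9 rose and 2 fell at 24 h. The cell cycle inhibitor CDKN1C, silenced by KCNQ1OT1 on the paternal copy, rose 2.53-fold at 8 h and 2.83-fold at 24 h (limma adjusted p = 9.23e-07 and 1.45e-07). PHLDA2, a growth-restraining gene of the cluster, rose 2.30-fold at 8 h (limma adjusted p = 6.63e-09) and was at 1.10-fold at 24 h (limma adjusted p = 0.176), where it passed with ERCC scaling (0.52, limma adjusted p = 0.000641). H19, an imprinted non-coding RNA on the same list, rose 2.51-fold and 1.58-fold. Whether KCNQ1OT1 acts on each listed gene was not tested. ASCL2, a stem cell transcription factor, rose 1.92-fold at 8 h and fell to 0.298-fold at 24 h, and SLC22A18 fell to 0.694-fold and 0.554-fold, the first of which was lost with ERCC scaling (-0.09, limma adjusted p = 0.656). KCNQ1OT1 itself was at 0.01 on the log2 scale at both times.

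Of 17 tested entries of other regulatory long non-coding RNAs (LINC-PINT has 2), 2 rose and 10 fell at 8 h and 1 rose and 12 fell at 24 h in CNOT1-AID cells, with medians of -0.65 and -0.64. Over all 1499 long non-coding genes the medians were -0.36 and -0.41, with 106 rising and 604 falling at 8 h and 199 and 664 at 24 h. With ERCC scaling 3 rose and 6 fell at 8 h and 4 rose and 7 fell at 24 h. MIR4435-2HG and CYTOR, close paralogs whose reads may be shared, fell to 0.177-fold and 0.187-fold at 24 h (limma adjusted p = 5.47e-14 and 2.28e-13). HOTAIRM1, transcribed from the HOXA cluster, fell to 0.299-fold. Of 4 transcription factors reported at the NEAT1 promoter, none rose, and HSF1 and EPAS1 fell at both times (to 0.771-fold and 0.720-fold at 8 h, and 0.738-fold and 0.411-fold at 24 h). ATF2 fell at 24 h (0.680-fold). With ERCC scaling 1 of these 4 rose at each time, none fell at 8 h, and of the falls named here only that of EPAS1 at 24 h passed (-0.92, limma adjusted p = 7.08e-06).

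**Figure D5:**
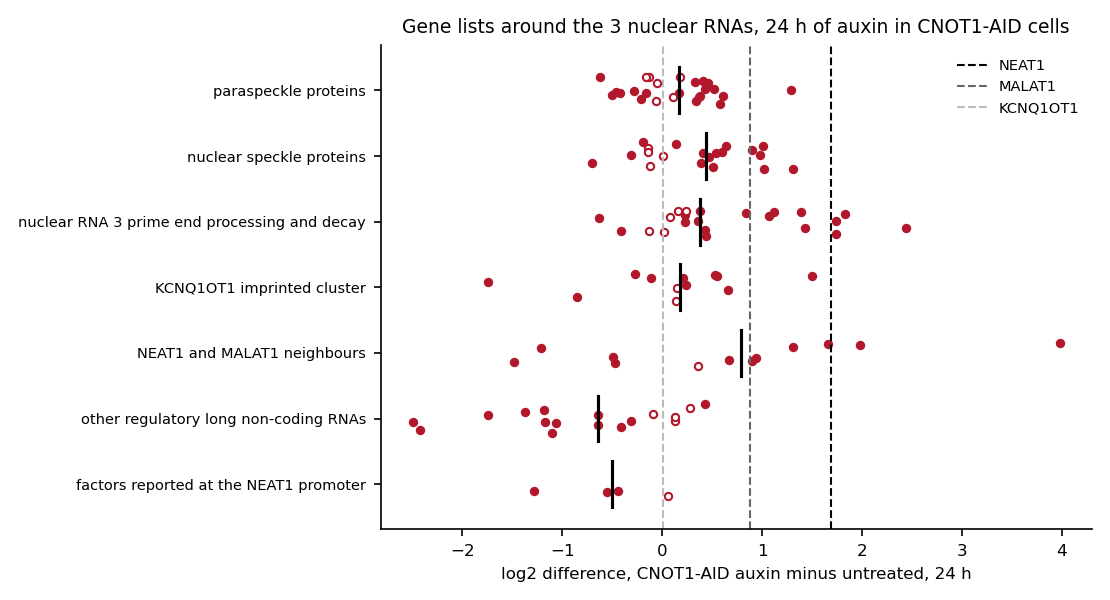
Log2 difference of each tested gene between CNOT1-AID auxin and untreated cells at 24 h, by list; filled points passed limma's adjusted p of 0.05, black bars are list medians, and dashed lines mark NEAT1 (1.69), MALAT1 (0.88) and KCNQ1OT1 (0.01). RPP38, RPP40, ZCCHC8, ZC3H3, DPF2 and CDC42EP2 lie above NEAT1, and the other long non-coding RNAs have a median of -0.64.

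Auxin in CNOT4-AID cells gave few calls in these lists. At 24 h, where 2.09% of all genes passed upward and 2.42% downward, 2 of 25 paraspeckle proteins rose and 1 fell, and 2 of 20 speckle proteins rose and 1 fell. With ERCC scaling, where 3.07% of all genes passed upward and 0.0067% downward, 2 paraspeckle and 1 speckle gene rose and 0 fell in both lists. PNN, a speckle protein, rose 1.45-fold (limma adjusted p = 0.0194). On the list of the KCNQ1OT1 cluster IGF2 and H19 fell to 0.759-fold and 0.798-fold (limma adjusted p = 0.0377 and 0.0478). Both calls were lost with ERCC scaling (-0.20 and -0.11, limma adjusted p = 0.29 and 0.514). Among the other long non-coding RNAs NORAD rose 1.24-fold (limma adjusted p = 0.00867).

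Under triptolide, 3 of 25 paraspeckle, 8 of 20 speckle and 10 of 23 nuclear 3′ end genes had a flatter slope in CNOT1-AID than in parental cells, and none a steeper one, where 18.8% of all genes were flatter and 0.94% steeper (median of all genes 0.028 per hour). With TMM scaling 4 paraspeckle genes were flatter and 11 steeper, 11 speckle genes flatter and 1 steeper, and 11 nuclear 3′ end genes flatter and 5 steeper, where 20.5% of all genes were flatter and 15.7% steeper. Of 13 neighbours of NEAT1 and MALAT1, 4 were flatter, with CDC42EP2 at 0.640 ± 0.14 per hour and DPF2 at 0.182 ± 0.032 (edgeR adjusted p = 0.00218 and 1.66e-05). Of 13 genes of the KCNQ1OT1 cluster, TSSC4 and ASCL2 were flatter, by 0.227 and 0.218 per hour (edgeR adjusted p = 8.92e-07 and 1.83e-05). Of 18 other long non-coding RNAs, 1 was flatter and 1 steeper. The share of flatter cluster genes is near that of all genes. With TMM scaling 5 neighbours were flatter and 1 steeper, and 2 cluster genes were flatter and 3 steeper. Of the other long non-coding RNAs 2 were flatter and 2 steeper with TMM.

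The genes whose pattern over the 12 steady-state groups was nearest to each RNA were found by the root mean square of log2 differences after centring. For NEAT1 these were C6orf47 (0.131), SLC9A3R2 (0.136) and EIF4A2 (0.139), where the median over 9470 genes of at least 5 TPM was 0.512. For MALAT1 they were C1orf131 (0.089), NIFK (0.095) and ZC3H14 (0.097), with a median of 0.384. For KCNQ1OT1 they were POU2F1 (0.084), NFAT5 (0.12) and the long non-coding RNA FTX (0.126), with a median of 0.401.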

How the data were processed

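A table of the whole series was used for each set. The authors deposited TPM values for 24 steady-state libraries and read counts for 24 triptolide libraries, each for 58721 genes and 92 ERCC sequences. Total RNA was depleted of ribosomal RNA and made into stranded libraries, per the labels' protocols. STAR 2.5.1b, RSEM, featureCounts, SAMtools and DESeq2 with GRCh38 are named in the submitters' processing notes. Which tool made which table is not given in the sources used here.

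TPM were scaled by TMM factors from genes with at least 1 TPM in 2 libraries, and log2(TPM + 0.5) was fitted in limma 3.58.1 with 1 mean per group (trend, robust; 12 residual degrees of freedom). Counts were fitted in edgeR 4.0.16 (robust quasi-likelihood) as slopes per hour (18 degrees of freedom) or as group means, with ERCC scaling over 56 sequences of at least 10 mean counts, except 0 h levels, which used TMM. P-values were adjusted by Benjamini-Hochberg over all genes tested within each contrast, with a threshold of 0.05. The code was tested on simulated data. Of 200 planted differences of 1 on the log2 scale limma recovered 85%, with 4.49% of its calls false. Of 200 planted slope differences of 0.15 per hour between CNOT1-AID and parental cells edgeR recovered 33.5%, with 5.63% of its calls false. Slope differences of that size were thus mostly missed. TMM, ERCC, library-total and median-of-ratios scaling, other pseudocounts and filters, DESeq2 1.42.0, left-out times and left-out libraries were tried as alternatives.

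The members and gene lists were chosen with earlier results of these data known. Named genes were up to 3 of each list per contrast with the largest change among those past the threshold and at least 5 TPM, and any measured gene of the 2 neighbour lists; SFPQ, NONO, PSPC1, RPPH1 and RPP40 were named outside that rule, after their values were seen. Some genes that the rule names are not reported here.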

Additional observations from a re-analysis of the deposited data

Results flagged for a closer look

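Responses that differed between lines by the test of the difference were singled out. NEAT1 responded more to auxin in CNOT1-AID than in parental cells, by 1.15 at 8 h and 1.75 at 24 h on the log2 scale, and more than in CNOT4-AID cells, by 1.69 at 8 h and 1.61 at 24 h. MALAT1 responded more in CNOT1-AID than in parental cells, by 0.75 at 8 h and 1.01 at 24 h, and more than in CNOT4-AID cells by 0.83 at 8 h. Of all genes, 50.3% to 62.2% passed each of these tests. Under triptolide, the NEAT1 slope in CNOT1-AID cells differed from the parental slope by -0.109 per hour. Groups of 2 libraries are too small to look for single outlying libraries.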

How the results depend on the processing

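Over 102 results on the 3 RNAs, 606 of 632 values under other settings were labelled the same. The label means the same side of the threshold, and the same direction where either value passed. Changes of sign between values that did not pass are thus within the 606. Of the rest, 13 lost the call, 11 gained it and 2 reversed with a call on either side. Without 1 library, 32 of 684 values differed. The causes were not tested. Reversed were NEAT1 in untreated CNOT4-AID against parental cells without scaling (-0.02) and MALAT1 at 12 h in CNOT4-AID cells with TMM (1.18). Of untreated NEAT1, calls were lost for CNOT1-AID without scaling (-0.37) and with ERCC (-0.38), and for CNOT4-AID with ERCC (0.32), the replicate block (0.24) and no filter (0.24), with 0.17 to 0.31 over single libraries left out. Replicate numbers did not pair libraries (correlations of deviations -0.221 to 0.201 in TPM, -0.341 to 0.131 in counts), and the block also ended the call for NEAT1 at 3 h in CNOT4-AID cells (-0.74). That step was -0.21 with TMM, -0.74 with no filter and -1.02 to -0.41 over single libraries left out. TMM gave calls to MALAT1 steps at 6 h (1.09) and 12 h (0.53) in CNOT1-AID, at 3 h (0.93) and 6 h (1.19) in CNOT4-AID and at 12 h (1.34) in parental cells, and to its parental slope (0.091). The NEAT1 slope difference between CNOT1-AID and CNOT4-AID cells passed with TMM (-0.156) and library totals (-0.127). Without 12 h, NEAT1 slopes lost the call in parental cells (-0.072) and in CNOT1-AID minus parental (-0.216), and the parental MALAT1 slope gained it (0.212). Without 0 h, the NEAT1 CNOT1-AID minus parental slope lost it (-0.097), and MALAT1 slopes gained it in CNOT1-AID (-0.101) and CNOT4-AID cells (-0.118). With ERCC scaling at 0 h, NEAT1 in CNOT4-AID (0.90) and MALAT1 in CNOT1-AID cells (0.80) against parental cells lost the call. Over single libraries left out, values ran from 0.48 to 1.02 for the MALAT1 response of CNOT1-AID minus parental at 8 h, 0.35 to 0.66 for that of CNOT1-AID minus CNOT4-AID at 24 h, -0.136 to -0.092 and -0.101 to -0.043 for the NEAT1 slopes of CNOT1-AID and CNOT4-AID minus parental, 0.32 to 0.87 (NEAT1, CNOT4-AID) and 0.32 to 0.61 (MALAT1, CNOT1-AID) at 0 h, and 0.83 to 1.39, 0.99 to 1.05 and -1.08 to -0.20 for MALAT1 steps in CNOT1-AID (3 h), parental (3 h) and CNOT4-AID cells (12 h). Counts of all genes called moved over 1.5 times for auxin in CNOT4-AID cells at 8 h (43; 11 without scaling, 6 with ERCC, 6 to 86 without 1 library) and 24 h (673; 21 without scaling, 249 with no filter, 21 to 639 without 1 library), and for auxin in parental cells at 8 h (3; 1 with ERCC, 18 with no filter, 0 to 1 without 1 library) and 24 h (0; 2 with a pseudocount of 0.1 or 1, 14 with no filter, 0 to 5 without 1 library). They also moved for slopes of CNOT1-AID minus parental (3325; 6091 with TMM, of which 3446 flatter and 2645 steeper against 3167 and 158 with ERCC, 5394 with library totals, 927 without 12 h, 2190 without 0 h), CNOT4-AID minus parental (142; 16 with TMM, 12 with library totals, 3012 with DESeq2, 594 with no filter, 28 with the block, 0 without 12 h, 66 without 0 h, 0 to 9690 without 1 library) and CNOT1-AID minus CNOT4-AID (8697; 2726 without 12 h, 5257 without 0 h), and for slopes of CNOT4-AID (14413; 8264 without 12 h), parental (8234; 3928 without 12 h) and CNOT1-AID cells (1851; 951 without 0 h, 1073 to 1971 without 1 library). The values of list genes with ERCC scaling and of list slopes with TMM scaling were added after seeing the data.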
